A study of Mus musculus with 6 samples.

Results

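A set of 10 genes, chosen around the pathway that drives branching of the ureteric bud, was followed in kidneys of mouse embryos with and without Sall1. It holds the ligand gene Gdnf, the receptor genes Ret and Gfra1, and the transcription factor genes Etv4 and Etv5. The feedback inhibitor genes are Spry1, Spry2, Spry4 and Dusp6. The set also holds the transmembrane protein gene Tmem59l, whose place in that pathway is not established here. The members are named by gene, and their probes were found through the RefSeq accession that the array design gives each probe. All 10 members were on the array, among 32665 features, and all 10 were among the 26394 features kept, those whose signal counted as well above background on 2 or more of the 6 arrays. The 10 members had 14 probes, and each of Gfra1, Etv5, Spry2 and Spry4 had 2 of them.

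In the developing kidney, Gdnf is secreted by the metanephric mesenchyme, including the nephron progenitors of the cap, and binds Gfra1 and Ret on the tips of the ureteric bud. Active Ret signals through Ras, phosphatidylinositol 3-kinase and phospholipase C, and raises Etv4 and Etv5, ETS family factors that tip cells need for branching. Sprouty proteins and Dusp6, a phosphatase that acts on Erk, are induced by the same signal and by Fgf signals, and they limit it. Sall1 encodes a zinc finger factor of the mesenchyme around the bud.

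The 4 groups were E14.5 embryonic kidneys of a hybrid of the 129 and C57BL/6 strains, with 0.25 ug of total RNA labelled per array. In the Six2Cre line, where Cre is driven in nephron progenitors, 2 arrays came from Sall1 knockout kidneys (replicates 7 and 9) and 2 from control kidneys (replicates 5 and 2). In the CreER line, whose name places an inducible Cre at Sall1, 1 array came from a Sall1 knockout (CreER/flox, replicate 5) and 1 from a control (wt/flox, replicate 2). Tamoxifen was given in that line at E12.5, 48 hours before the kidneys were collected. A note on tamoxifen stands with all 6 samples, so it is not clear whether the Six2Cre mice also received it. CreER is named for the knockout alone in its pair, so the allele and the deletion cannot be told apart. The labels leave out the Cre status of the Six2Cre controls, the number of kidneys in a sample and whether arrays of a group came from separate embryos. The p-values therefore measure the spread between these samples, which may be technical, and the small number of arrays limits the precision. Six2Cre knockout 7 and control 5 were on slide 1 and the other 4 arrays on slide 2, so each slide held a Six2Cre pair.

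Levels are log2 processed signals minus the 75th percentile of the array, so 0 is that percentile, and differences are knockout minus control in log2 units. Between 71.6% (CreER knockout 5) and 82.9% of probes were well above background, and negative control spots had an SD of 4.01 on CreER knockout 5 against 1.46 to 1.61 on the other 5 arrays. Sall1 itself was at -2.64 and -1.99 in Six2Cre knockouts 7 and 9, against -1.37 and -0.76 in controls 5 and 2. It was at -4.05 in the CreER knockout and -1.27 in the CreER control. Six2Cre control 2 stood apart in skeletal and cardiac muscle markers, whose summed level, in units of the array's 75th percentile, was 5.78 and 5.49 in the Six2Cre knockouts, against 4.71 in control 5 and 52.0 in control 2. For the members and the main genes of the pathway lists, differences are therefore also given within slide 1, which does not hold that array. Those of the immediate early genes and of single trunk and collecting duct markers are over both slides only.

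Promoter windows of RefSeq (build GRCm38.p6, 250 bases before to 50 after the start, on the strand of the gene) were at hand for 7 of the 10 members, in 9 windows, and not for Ret, Etv4 and Spry4. They were searched on both strands for a pair of 6-base forms of the ETS core that Etv4 and Etv5 are known to recognise. The first form was CCGGAA. The second form, which shares the bases GGAA with the first, was GGAAGT. The windows were also searched for a TATA box in the form TATAAA. The windows of Gdnf, Etv5 and Tmem59l are shown because these genes are the ligand, a target and the member lower by more than 0.8 in each of the 3 pairs of arrays. They lie at chr15:7809798-7810097 on the + strand (Gdnf, the first of its windows), chr16:22438319-22438618 on the - strand (Etv5, the second of its windows) and chr8:70487299-70487598 on the - strand (Tmem59l), and capitals mark the motifs.
Gdnf: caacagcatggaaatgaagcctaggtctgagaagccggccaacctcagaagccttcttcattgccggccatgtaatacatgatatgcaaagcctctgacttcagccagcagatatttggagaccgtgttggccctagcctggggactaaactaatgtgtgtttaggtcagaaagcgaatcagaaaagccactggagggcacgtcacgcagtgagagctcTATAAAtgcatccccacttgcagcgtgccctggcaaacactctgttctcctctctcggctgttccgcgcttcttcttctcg
Etv5: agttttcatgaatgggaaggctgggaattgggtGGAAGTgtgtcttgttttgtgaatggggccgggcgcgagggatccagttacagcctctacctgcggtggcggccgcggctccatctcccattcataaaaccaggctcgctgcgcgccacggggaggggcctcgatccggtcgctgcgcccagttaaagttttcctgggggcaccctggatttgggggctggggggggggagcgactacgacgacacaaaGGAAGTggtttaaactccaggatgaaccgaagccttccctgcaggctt
Tmem59l: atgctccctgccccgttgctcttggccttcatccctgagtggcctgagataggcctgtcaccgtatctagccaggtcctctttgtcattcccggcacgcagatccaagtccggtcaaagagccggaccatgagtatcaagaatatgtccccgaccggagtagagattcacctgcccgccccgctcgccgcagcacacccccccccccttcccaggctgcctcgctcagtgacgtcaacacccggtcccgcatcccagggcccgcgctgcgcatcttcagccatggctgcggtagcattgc
The Gdnf window held TATAAA starting 31 bases upstream of the start. The Etv5 window held GGAAGT 217 bases upstream and again from base 3 after the start, and the Tmem59l window held none of the 3 motifs. The windows of Gdnf and Etv5 that are not shown held none of the 3 either. CCGGAA stood 156 bases upstream in Gfra1 and from base 34 after the start in Spry2. Among all 32851 windows of the table, the first ETS form was held by 14.9%, the second by 23.8% and the TATA box by 13.6%, so a match in a single window is a common event and describes the letters only.

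In Six2Cre knockout kidneys, Etv4, Etv5 and Tmem59l had the largest differences among the 10 members, with lower levels in both knockouts than in both controls. The sprouty genes Spry1 and Spry4 were lower within each slide, by 0.43 to 0.74, while their levels varied more between slides than between genotypes. Gdnf, Spry2 and Dusp6 had differences close to 0, and those of Ret and Gfra1 were small. None of the 10 passed an adjusted p of 0.05 in the limma fit of the 4 groups, in which 0% of all features passed. The lowest adjusted p of any feature there was 0.0828, and 962 features were higher and 708 lower at an unadjusted p under 0.05. In these bulk samples, fewer cells of a type and less RNA per cell cannot be told apart.

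**Figure D1:**
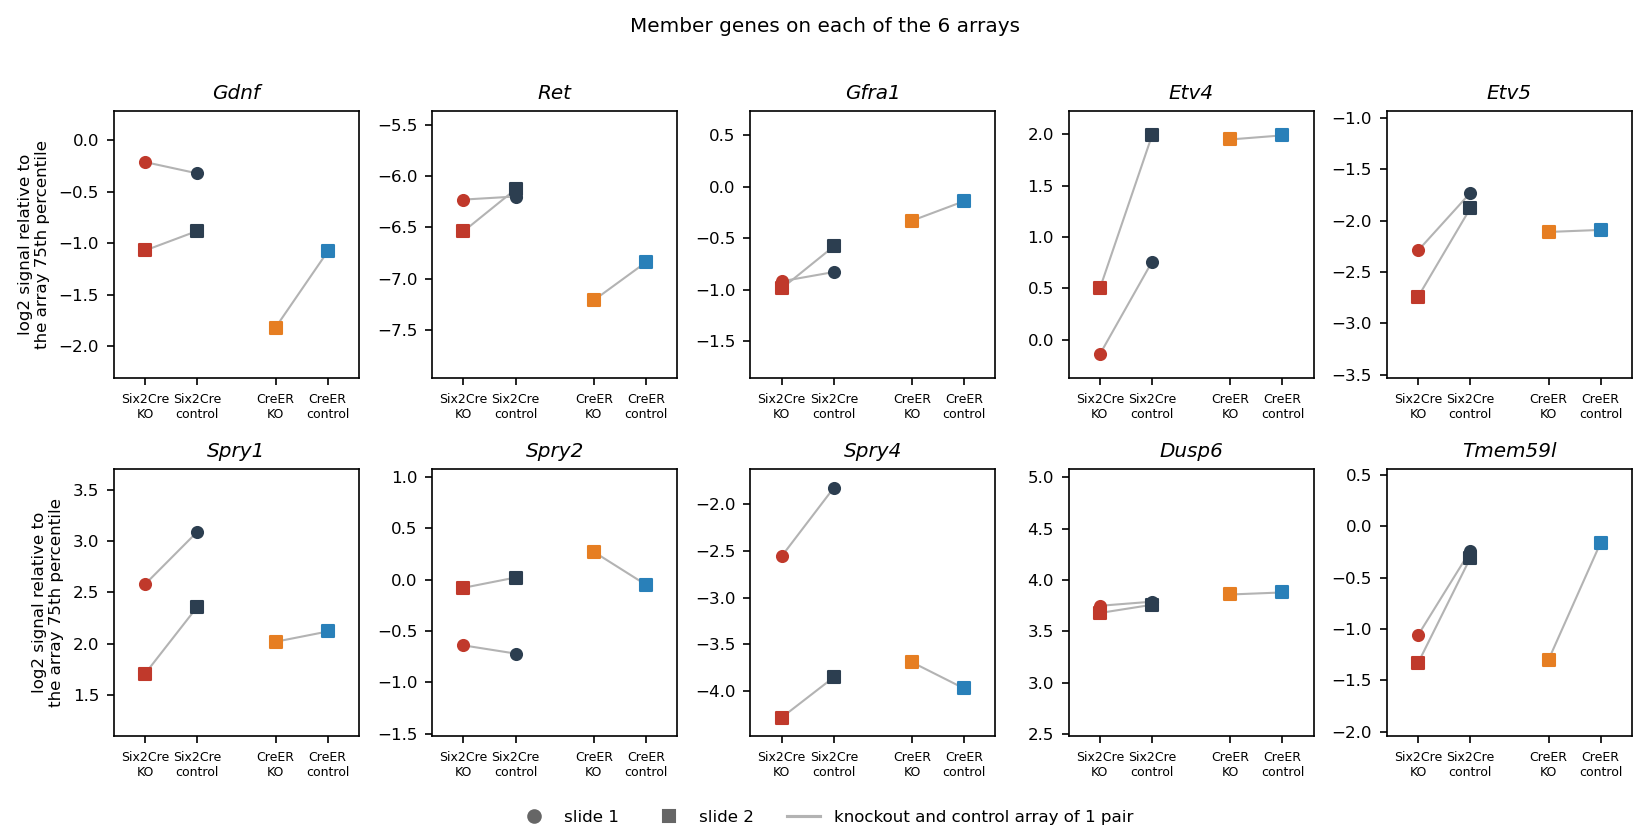
Log2 signal relative to the array's 75th percentile (y axis) for the 10 members on each of the 6 arrays. The y axis has the same span in each panel except that of Spry4, where it is wider. Knockout is left of control in each line, with circles for slide 1 and squares for slide 2. A grey line joins the knockout and control array of a pair. Both Six2Cre lines slope up toward the control for Etv4, Etv5, Spry1, Spry4 and Tmem59l, and of these 5 only Tmem59l has a slope of similar size in the CreER pair.

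Gdnf, the ligand, was at -0.21 and -1.07 in Six2Cre knockouts 7 and 9, against -0.32 and -0.88 in controls 5 and 2. The knockout and control arrays interleaved, and the 2 arrays of slide 1 were above the 2 of slide 2. The difference was -0.04 (SE 0.41, 95% interval -1.12 to 1.03, limma adjusted p = 1), made up of 0.11 on slide 1 and -0.19 on slide 2. With the slide as a block the interval narrowed to -0.60 to 0.51. The sign turned to 0.24 without control 5 and to 0.39 without knockout 9, which leave unequal numbers of arrays per slide. In the CreER pair Gdnf was at -1.82 in the knockout and -1.08 in the control, a ratio of 1.67 from single arrays without an error. The CreER knockout was below the other 5 arrays, and the CreER control was level with Six2Cre knockout 9. In a fit of genotype to all 6 arrays together, which also took up line and slide, the Gdnf difference was -0.28 (SE 0.20, limma adjusted p = 0.688), and -0.47 without Six2Cre control 5 or without knockout 7.

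Ret, the receptor tyrosine kinase, had a dim probe that was printed 10 times on the array, whereas every other member probe had 1 spot. The Ret level was -6.23 and -6.54 in Six2Cre knockouts 7 and 9, against -6.20 and -6.13 in controls 5 and 2. Both knockouts were below both controls, but knockout 7 by 0.03 only within its slide. The mean intensity of the 10 spots was 27.1 (SD 2.24) and 20.5 (SD 2.78) in knockouts 7 and 9, against 26.9 (SD 2.39) and 27 (SD 2.81) in controls 5 and 2. The spots of knockout 7 thus overlapped those of the controls, and knockout 9 was the array that differed. The difference was -0.22 (SE 0.26, 95% interval -0.90 to 0.46, limma adjusted p = 1), and it was -0.06 without knockout 9.

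In the CreER knockout the Ret spots averaged 12.0 in intensity with an SD of 5.43, and 1 of the 10 was well above background, against 17.8 with an SD of 2.55 in the CreER control. Ret was thus not well above background on CreER knockout 5, and no fold is given for that pair, because the dimmest signal that counted as well above background on that array (-6.41) was above the level of the control (-6.84). The authors' deposited series table holds 22.9 for CreER knockout 5, the intensity of its brightest spot and of the lone spot well above background, and 17.7 for the CreER control. The order of knockout and control in that pair therefore depends on whether all spots are averaged.

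**Figure D2:**
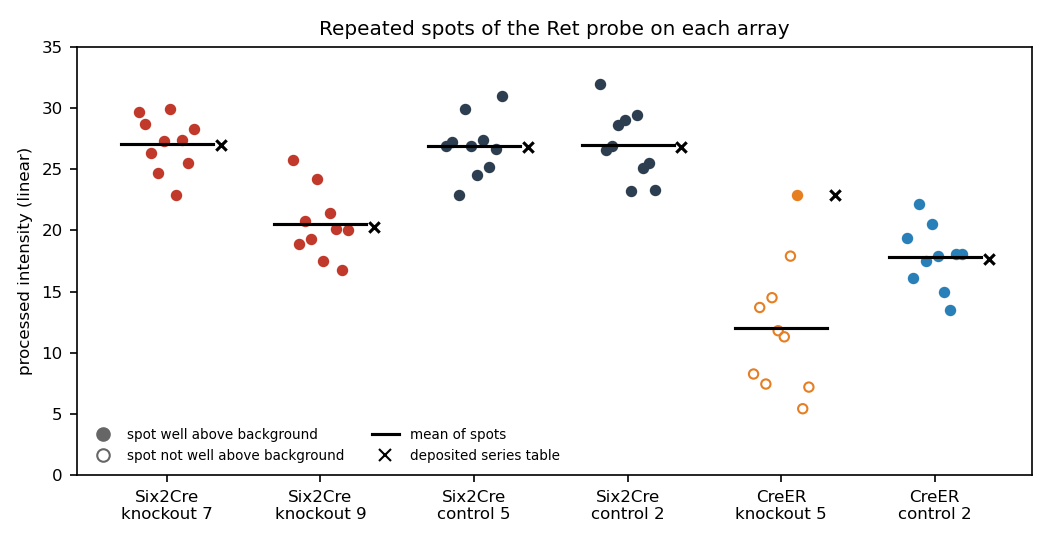
Linear processed intensity (y axis) of the 10 spots of the Ret probe on each array, knockouts left of controls in each line; filled circles are spots well above background, open circles spots that are not, bars the mean of the spots and crosses the value in the authors' deposited series table. On CreER knockout 5 the mean is 12.0 and the deposited value 22.9, at the only filled spot, whereas mean and deposited value lie close together on the other 5 arrays.

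Gfra1, the coreceptor that presents Gdnf to Ret, was at -0.92 and -0.99 in Six2Cre knockouts 7 and 9, against -0.83 and -0.58 in controls 5 and 2, by the brighter of its 2 probes. The groups did not overlap, and the gap within slide 1 was 0.10. The difference was -0.25 (SE 0.25, 95% interval -0.91 to 0.41, limma adjusted p = 1). By the dimmer probe, tested in a fit with each probe as its own feature, Gfra1 was at -1.71 and -1.42 in the knockouts, against -0.79 and -0.83 in the controls, a difference of -0.76 (SE 0.26, limma unadjusted p = 0.0353, adjusted p = 0.762). The CreER knockout was below its control by 0.19 with the brighter probe and by 0.29 with the dimmer one. Both probes thus had the same sign in all 3 pairs, with a size in the Six2Cre line that depended on the probe.

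Etv4 was at -0.14 and 0.50 in Six2Cre knockouts 7 and 9, against 0.76 and 1.99 in controls 5 and 2. Both knockouts were below both controls, and slide 2 gave higher levels in either genotype. The difference was -1.20, or 2.29-fold lower (SE 0.51, 95% interval -2.53 to 0.13, limma unadjusted p = 0.0683, adjusted p = 0.871). Within slides it was -0.90 and -1.49, and with the slide as a block the interval was -1.87 to -0.52 (unadjusted p = 0.00876, adjusted p = 0.231). With the block and limma's trend and robust options, the adjusted p was 0.0259. Without control 2, the array with the muscle markers, Etv4 differed by -0.58, and without control 5 by -1.81. Each of these leaves unequal numbers of arrays per slide, in a fit without the slide.

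In the CreER pair Etv4 was at 1.95 in the knockout and 1.99 in the control, level with Six2Cre control 2 and above the other 3 Six2Cre arrays. The difference between the lines, CreER minus Six2Cre, was 1.16 (SE 0.88, limma adjusted p = 1), or an unadjusted p of 0.0512 and an adjusted p of 0.955 with the slide as a block, and it ran from 0.54 to 1.77 with single Six2Cre arrays left out. The lone CreER arrays are assumed there to vary like the Six2Cre groups, and a difference in the response of Etv4 between the lines was not shown. Over all 6 arrays Etv4 differed by -0.81 (SE 0.31, limma adjusted p = 0.525), and by -0.47 without Six2Cre control 2 or without knockout 9.

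Etv5, the partner of Etv4 at the tip, was at -2.29 and -2.74 in Six2Cre knockouts 7 and 9, against -1.73 and -1.88 in controls 5 and 2, by its brighter probe. The groups did not overlap, and both knockouts were also below the CreER arrays. The difference was -0.71, or 1.64-fold lower (SE 0.28, 95% interval -1.45 to 0.03, limma unadjusted p = 0.0565, adjusted p = 0.821), with -0.57 on slide 1 and -0.86 on slide 2. The dimmer Etv5 probe was at -3.90 and -3.43 in the knockouts, against -2.43 and -2.34 in the controls, a difference of -1.28 or 2.42-fold (SE 0.29, unadjusted p = 0.00738, adjusted p = 0.41). With each probe as its own feature, the slide as a block and the trend and robust options, limma gave the dimmer Etv5 probe an adjusted p of 0.0482 and the brighter one 0.185. The CreER knockout and control were 0.02 apart by the brighter probe, at -2.11 and -2.09, and 0.06 apart in the other direction by the dimmer one. The difference between the lines was 0.70 (SE 0.49, adjusted p = 1) for the brighter probe.

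**Figure D3:**
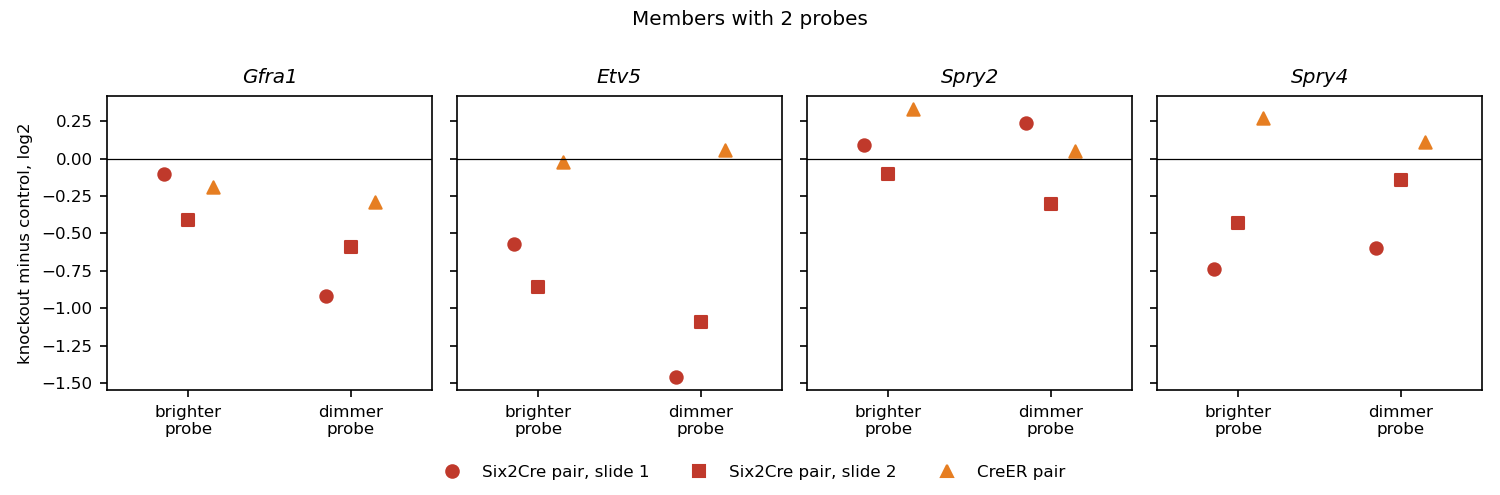
Knockout minus control in log2 units (y axis) by the brighter and the dimmer probe of Gfra1, Etv5, Spry2 and Spry4, with 1 symbol per pair of arrays. Both Etv5 probes lie between -0.57 and -1.46 in the Six2Cre pairs and between -0.02 and 0.06 in the CreER pair; both Spry2 probes straddle 0 in the Six2Cre pairs.

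Among the feedback inhibitors, Spry1 was at 2.58 and 1.71 in Six2Cre knockouts 7 and 9, against 3.09 and 2.36 in controls 5 and 2. The groups overlapped because slide 2 was lower in either genotype, by 0.88 between the knockouts and 0.73 between the controls. The Spry1 difference was -0.58 (SE 0.44, 95% interval -1.73 to 0.58, limma adjusted p = 1), with -0.50 on slide 1 and -0.65 on slide 2. With the slide as a block its interval was -1.09 to -0.06 (unadjusted p = 0.037, adjusted p = 0.386). The CreER knockout and control, at 2.02 and 2.12, were 0.10 apart.

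Spry4 moved more with the slide than any other member. It was at -2.56 and -4.28 in Six2Cre knockouts 7 and 9, against -1.83 and -3.85 in controls 5 and 2, so that the arrays of slide 2 were lower by 1.72 in knockouts and 2.02 in controls. The knockout was the lower array on each slide, by 0.74 and 0.43. The difference was -0.58 with an SE of 0.90 in the fit without the slide (95% interval -2.92 to 1.76) and an SE of 0.19 with it (-1.14 to -0.03, limma unadjusted p = 0.0442, adjusted p = 0.414). It turned to 0.43 without control 5 and to 0.28 without knockout 9. The CreER knockout, at -3.69, was above its control, at -3.97. The dimmer Spry4 probe was well above background on Six2Cre control 2 and knockout 9 alone and differed by -0.37 (SE 0.59).

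Spry2 was at -0.64 and -0.08 in Six2Cre knockouts 7 and 9, against -0.72 and 0.02 in controls 5 and 2, and here slide 2 gave the higher levels. The 95% interval of its difference was -1.01 to 1.0 (limma adjusted p = 1), with 0.09 on slide 1 and -0.10 on slide 2. The sign turned to 0.37 without control 2 and to 0.27 without knockout 7. The CreER knockout was at 0.27 and its control at -0.05, and over all 6 arrays Spry2 was the only member with a positive difference, of 0.11 (SE 0.14, adjusted p = 0.805).

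Dusp6, the Erk phosphatase, varied least over the 6 arrays among the 10 members. It was at 3.75 and 3.68 in Six2Cre knockouts 7 and 9, against 3.79 and 3.76 in controls 5 and 2, and at 3.86 in the CreER knockout against 3.88 in its control. The Six2Cre groups did not overlap, yet the difference was -0.06 (SE 0.24, 95% interval -0.69 to 0.57, limma adjusted p = 1), with -0.04 on slide 1 and -0.08 on slide 2. A p that misses the threshold does not show that Dusp6 is the same in both, but the interval bounds the difference at -0.69 and 0.57.

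Tmem59l was at -1.06 and -1.33 in Six2Cre knockouts 7 and 9, against -0.24 and -0.31 in controls 5 and 2. In the CreER line it was at -1.30 in the knockout and -0.16 in the control. All 3 knockout arrays were thus below all 3 controls, with differences of -0.82, -1.02 and -1.14 in the 3 pairs, and the slides were within 0.27 of each other in each genotype. The Six2Cre difference was -0.92, or 1.89-fold lower (SE 0.26, 95% interval -1.59 to -0.25, limma unadjusted p = 0.0173, adjusted p = 0.542). With the slide as a block and the trend and robust options the adjusted p was 0.0384, or 0.0502 with each probe as its own feature. Over all 6 arrays the difference was -0.99 (SE 0.13, 95% interval -1.34 to -0.64, unadjusted p = 0.0012, adjusted p = 0.254), the lowest p of the 10 members. The difference between the lines was -0.22 (SE 0.44, adjusted p = 1). No single Six2Cre array decided the value, which stayed between -1.05 and -0.78 when each was left out.

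**Figure D4:**
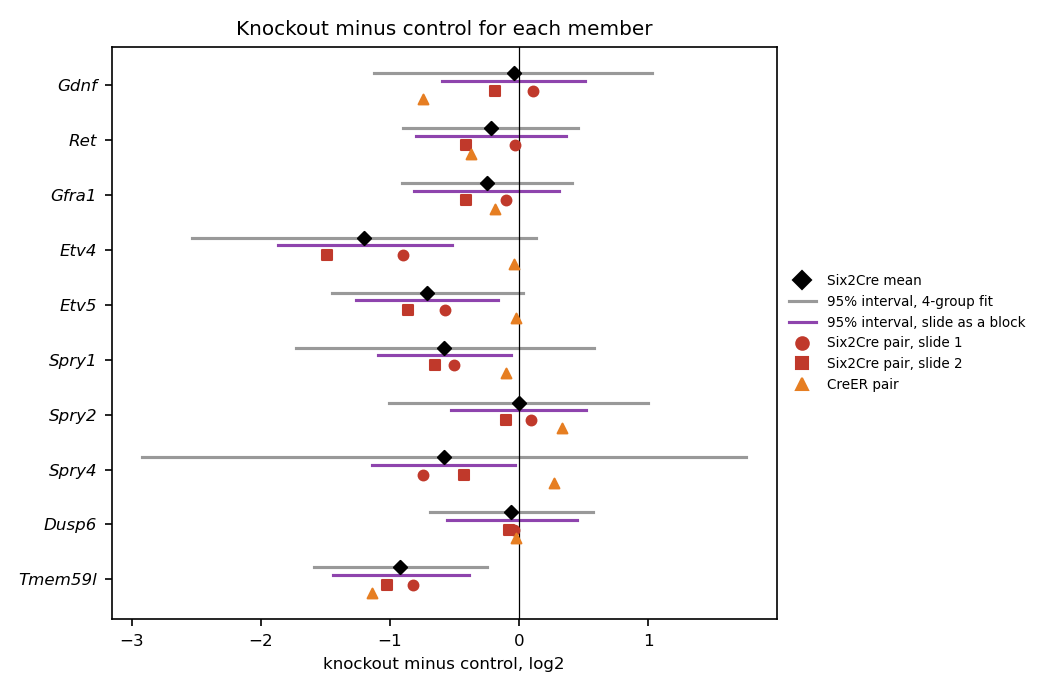
Knockout minus control in log2 units (x axis) for each member: diamonds are the Six2Cre mean, grey bars its 95% interval in the 4-group fit, purple bars that with the slide as a block, and the other symbols the 3 pairs of arrays. With the slide as a block the intervals of Etv4, Etv5, Spry1, Spry4 and Tmem59l lie below 0, while the CreER symbol is far from 0 for Tmem59l and Gdnf.

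Counted over the list, all 10 members had a negative Six2Cre difference, 2 of them (Gdnf and Spry2) within 0.05 of 0, and the median was -0.41, beside 0.03 for all features. The knockout and control arrays did not overlap for 6 members (Ret, Gfra1, Etv4, Etv5, Dusp6 and Tmem59l), beside 30.2% of all features. In all 6 the knockouts were the lower ones, whereas among all features 3306 were below and 4669 above without overlap. Tmem59l alone was lower at an unadjusted limma p under 0.05, where 2.68% of all features were. With the slide as a block, 5 members were (Etv4, Etv5, Spry1, Spry4 and Tmem59l), beside 4.54% of all features. With the trend and robust options as well, 2 members (Etv4 and Tmem59l) were lower at an adjusted p under 0.05 and 0 higher, beside 1.27% and 1.24% of all features. The members were chosen as a set whose behaviour in these arrays was already known, so the counts describe the list.

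In the CreER pair 8 of the 10 were lower in the knockout, with a median of -0.07, beside 13587 of the 26394 features and a median of -0.01. The 8 include Ret, which was not well above background on that knockout array, and without it 7 of 9 were lower. Tmem59l was the only member at least 2-fold lower, where 2.18% of all features were, and none was at least 2-fold higher, where 1.83% were. All 3 pairs were lower in 7 members (Ret, Gfra1, Etv4, Etv5, Spry1, Dusp6 and Tmem59l), beside 14.4% of all features, and higher in 0, beside 19.9%. Without Ret, whose CreER difference turned positive with the deposited table and with normexp background, 6 members were lower in all 3. Of these, Etv5 and Dusp6 had CreER differences of -0.02 each, whose sign also depended on the setting. Etv5 turned to 0.0094 with quantile normalization and to 0.021 with all probes of a gene, and Dusp6 to 0.047 with normexp. Over all 6 arrays no member passed an adjusted p of 0.05, where 0% of features passed and 1525 were higher and 1040 lower at an unadjusted p under 0.05. For the difference between the lines 0 members passed, and likewise 0% of features, with 307 higher and 307 lower at an unadjusted p under 0.05.

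By the order of the 4 group means, set against the spread that limma fitted for each gene, Tmem59l split by genotype: both control groups were above both knockout groups, and the neighbours within a genotype did not differ beyond that spread. The Six2Cre means take in both slides while both CreER arrays were on slide 2, so an order between the lines can hold the slide. For Gdnf the 2 Six2Cre groups were on top and not apart beyond the spread, yet on slide 2 alone Six2Cre knockout 9 and control 2, at -1.07 and -0.88, stood beside the CreER control at -1.08. For Ret the 2 Six2Cre groups were likewise not apart beyond the spread, and the CreER knockout has no place in the order because Ret was not well above background there. By its brighter probe Gfra1 had the 2 CreER groups on top, also on slide 2 alone. By the dimmer probe the CreER knockout, at -1.01, was below Six2Cre controls 5 and 2, at -0.79 and -0.83. Etv4 had the CreER groups on top by their means, but Six2Cre control 2 and the CreER control were both at 1.99. Etv5 had the Six2Cre control on top and the Six2Cre knockout lowest, and Spry1 had the Six2Cre control above 3 groups that did not differ beyond the spread. On slide 2 alone, Spry1 was at 2.36 in Six2Cre control 2 and 1.71 in knockout 9, with the CreER arrays between them at 2.02 and 2.12. For Spry2, Spry4 and Dusp6 no neighbours in the order differed beyond it.

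The named genes whose levels ran most like Gdnf over the 6 arrays were H1f7 (Pearson r 0.995), Art3 (0.987) and Sulf2 (0.987), and those most like Ret were Mrap (0.979), Pogz (0.975) and Tdrd6 (0.969). Sulf2, an extracellular sulfatase of heparan sulfate, was at 3.33 and 2.82 in Six2Cre knockouts 7 and 9, against 3.17 and 2.86 in controls 5 and 2, and at 2.42 in the CreER knockout against 2.73 in its control. On CreER knockout 5, Ret, H1f7, Mrap and Tdrd6 had values below -6.41, the dimmest signal that counted as well above background there. The r values of Ret, and that of H1f7 with Gdnf, thus rest in part on a signal not well above background, and the arrays share slides and lines.

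Other genes of the pathway were read from lists by role, each named gene being among those whose Six2Cre groups did not overlap unless stated. For comparison, 12134 of all features were lower in the Six2Cre knockouts and 14260 higher. Of 26 kept regulators of Gdnf and of budding, 22 were lower in the Six2Cre knockouts and 4 higher, with a median of -0.40. With the slide as a block, trend and robust options, 4 were lower and 1 higher at an adjusted limma p under 0.05. The lower ones include Sall1, the deleted gene. The others of these, among them Six2 and Eya1, are also in the list of nephron progenitor markers, so the 2 lists are not independent. Six2, the factor that keeps nephron progenitors undifferentiated, differed by -1.59 (SE 0.27) and by -0.50 in the CreER pair. Eya1, a partner of Six2 that acts upstream of Gdnf, differed by -1.06 (SE 0.27) and -0.23. Grem1, the Bmp antagonist that permits budding, was dim and well above background on 5 of the 6 arrays, and differed by -1.36 (SE 0.38) and -0.41. Sall1 differed by -1.25 (SE 0.38) and -2.78. Within slide 1 the differences were -1.40 for Six2, -1.10 for Eya1, -1.78 for Grem1 and -1.26 for Sall1. Robo2, a receptor that restricts Gdnf expression, had overlapping Six2Cre groups. It differed by -0.66 (SE 0.50), by -0.80 within slide 1, and by -1.0 in the CreER pair. Gdnf itself, between these regulators and the tip, had the difference of -0.04 given above.

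Of 14 kept genes of the ureteric bud tip, 11 were lower and 3 higher in the Six2Cre knockouts, with a median of -0.40, and 3 lower ones passed with the slide as a block, trend and robust options. These were Sox8, a Sox factor of the tip, at -1.70 (SE 0.27, adjusted p = 0.0262), Lhx1, a homeobox factor, at -1.59 (SE 0.49, adjusted p = 0.00603), and Wnt6 at -1.45 (SE 0.30, adjusted p = 0.0259). Within slide 1 they differed by -1.50, -1.83 and -1.14, and in the CreER pair by -1.65, -0.15 and -1.04. Lhx1 is also made by early nephrons, so its level is not one of the tip alone. Adamts18, a secreted protease, was higher, by 1.26 (SE 0.55), by 0.84 within slide 1, and by 1.37 in the CreER pair. Wnt11, the tip ligand that is a known target of Ret and raises Gdnf in turn, had overlapping Six2Cre groups and differed by -0.07 (SE 0.28), with 0.01 on slide 1 and -0.15 on slide 2, and by -0.41 in the CreER pair.

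Of the 12 other kept feedback inhibitors of receptor tyrosine kinases, 7 were lower and 5 higher, with a median of -0.27 (-0.44 on slide 1 and -0.02 on slide 2). Dusp9, an Erk phosphatase, differed by -1.41 (SE 0.40) and Dusp4, another, by -1.06 (SE 0.41), whereas Lrig1, which lowers receptor levels, differed by 0.82 (SE 0.29). Within slide 1 they differed by -1.22, -1.35 and 1.08. Only Dusp9 passed with the slide as a block, trend and robust options (limma adjusted p = 0.00782). Of 22 kept adaptors and effectors of Ret, 13 were lower and 9 higher, with a median of -0.06. Pik3r1, a regulatory subunit of phosphatidylinositol 3-kinase, was higher by 1.07 (SE 0.28), by 0.93 within slide 1, and by 0.77 in the CreER pair, and was the only one to pass in that fit (adjusted p = 0.0168). Grb7 and Gab1 had differences of -0.35 and 0.26, and of -0.19 and 0.18 within slide 1.

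Of 11 kept Fgf ligands and receptors, whose signal also induces Etv and Sprouty genes, 9 were lower and 2 higher, with a median of -0.42. Fgf1 differed by -1.68 (SE 0.27) and by -1.83 in the CreER pair, and Fgf8, a ligand of early nephrons, by -1.04 (SE 0.24) and 0.16. Within slide 1 they differed by -1.74 and -0.95. Both passed with the slide as a block, trend and robust options, at limma adjusted p-values of 0.0348 and 0.0282. The 6 other kept genes of the Gdnf family of ligands and coreceptors had a median of 0.34, with 5 higher and 1 lower. Gfra3, the coreceptor of artemin, was higher by 0.91 (SE 0.26), and by 1.05 within slide 1. Of 11 immediate early genes, 4 were lower and 7 higher, with Egr2 at -1.31, Egr1 at -0.90, Jun at 0.91 and Atf3 at 0.59, and Egr1 and Jun passed in that fit.

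**Figure D5:**
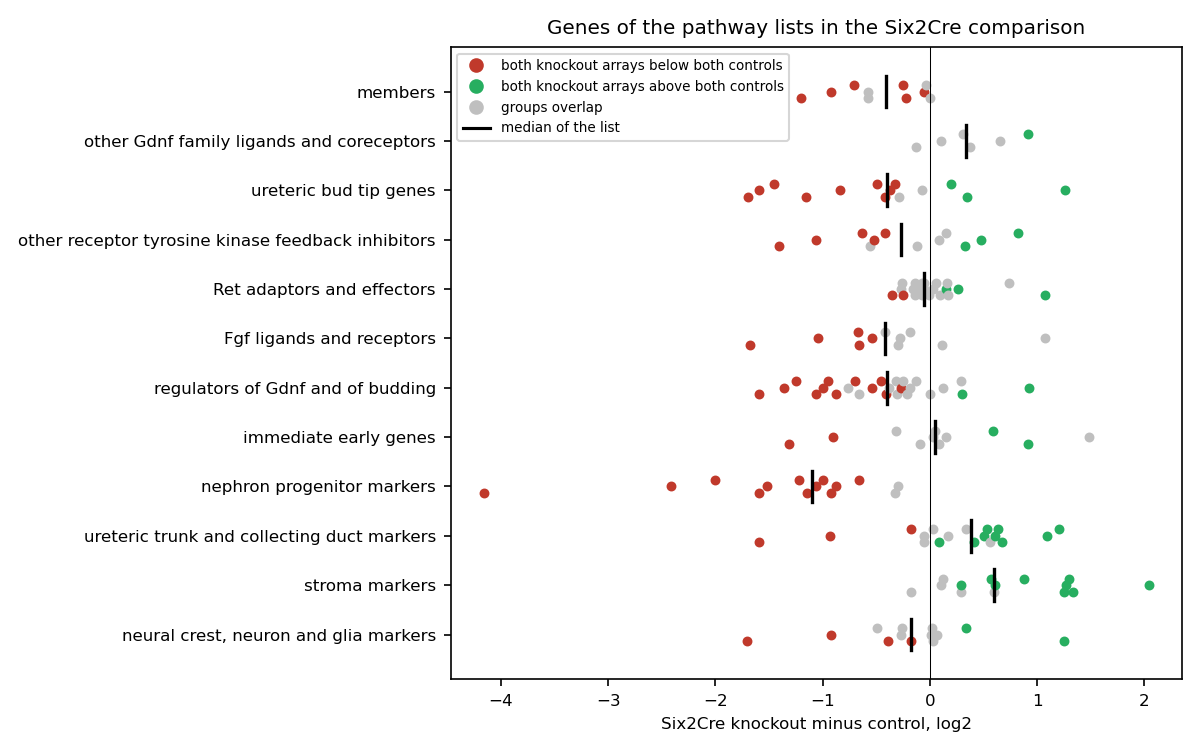
Six2Cre knockout minus control in log2 units (x axis) for the genes of each list, with red points where both knockouts were below both controls, green points where both were above, grey points where the groups overlap, and a bar at the median of the list. The medians of the members, the tip genes, the Fgf genes and the regulators of Gdnf lie between -0.42 and -0.40, that of the nephron progenitor markers at -1.10, and those of stroma and of trunk and collecting duct at 0.60 and 0.38.

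Markers of the cell types that hold this pathway were read beside it. All 14 nephron progenitor markers, of the cells that make Gdnf, were lower, with a median of -1.10. Without overlap 12 of them were lower, beside 3306 of the 26394 features. The summed level of the 14 markers was 15.7 and 16.0 in knockouts 7 and 9, against 42.7 and 49.5 in controls 5 and 2. It was 32.5 in the CreER knockout and 51.0 in the CreER control. Gdnf levels, in contrast, overlapped between the Six2Cre groups.

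Of 18 ureteric trunk and collecting duct markers, 13 were higher and 5 lower, with a median of 0.67 on slide 1 and 0.04 on slide 2. Without overlap 9 were higher and 3 lower, beside 4669 and 3306 of the 26394 features. None passed an adjusted p of 0.05 in the 4-group limma fit or with the slide as a block, trend and robust options. The markers had a summed level of 126 and 102 in the Six2Cre knockouts, against 80.2 and 88.8 in the controls. In the CreER line it was 103 in the knockout and 95.3 in the control. Any relation between these sums and the lower levels of Etv4 and Etv5 in the Six2Cre knockouts was not tested. Such a sum gives most weight to bright genes, Krt8 and Krt18 among them. Single markers varied, with differences of 1.09 for Krt19, 0.61 for Krt7, 0.53 for Wnt9b, 0.50 for Krt18 and 0.41 for Krt8. Some moved little, at 0.03 for Wnt7b, -0.06 for Aqp2 and -0.18 for Cdh1. Of 14 stroma markers, 13 were higher, with sums of 282 and 265 in the Six2Cre knockouts against 199 and 183 in the controls, and of 181 in the CreER knockout against 170 in its control. Of 13 kept markers of neural crest, neurons and glia, which also express Ret and Gfra1, 7 were lower and 6 higher, with sums of 1.93 and 1.96 in the Six2Cre knockouts against 3.18 and 3.15 in the controls, and of 3.90 in the CreER knockout against 3.40 in its control. That gap lay in Elavl4, chosen here after its values were seen: without it the sums were 1.5 and 1.4 in the Six2Cre knockouts against 1.7 and 1.3 in the controls. The part of these cell types in the levels of the members was not tested.

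Of 15 muscle markers all were lower over both slides in the Six2Cre line, with a median of -4.08 on slide 2 and 0.29 on slide 1. This shows control 2 as the Six2Cre array that differs. In the CreER pair their median was 0.59, with sums of 8.05 in the knockout and 5.49 in the control. There 6 of the 15 were at least 2-fold higher, beside 1.83% of all features. For Etv5 and Tmem59l the differences without Six2Cre control 2 were -0.79 and -0.96, close to those with it. For Etv4 the difference without it was -0.58, with unequal numbers of arrays per slide, and the pair of slide 1, which does not hold it, gave -0.90. Of 11 macrophage markers 10 were higher, with sums of 6.54 and 8.86 in the Six2Cre knockouts against 4.43 and 5.49 in the controls. Of 9 endothelium markers 5 were lower and 4 higher (median -0.16), and of 6 kept adrenal markers 4 were lower and 2 higher (median -0.26).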

How the data were processed

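One-colour Agilent mouse arrays were used, 1 per sample. Per the file headers, the authors' processed signal is a linear intensity from Feature Extraction 10.5.1.1, with background subtracted within each array and no scaling between arrays. For probes with 1 spot, the deposited series table repeats this signal, and its column medians were 216.85, 216.05 and 186.42 for Six2Cre knockouts 7 and 9 and CreER knockout 5, and 234.11, 201.69 and 217.31 for Six2Cre controls 5 and 2 and the CreER control. For the Ret probe, which has repeated spots, its value lay close to their mean on 5 arrays and equalled the lone spot well above background on CreER knockout 5.

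Spots with an outlier flag were left out, spots of a probe were averaged, and log2 of the deposited intensity minus the array's 75th percentile was analysed. Probes took gene names by RefSeq accession (25097 probes of 41174, 17305 genes), and the brightest probe stood for a gene. No probe was saturated. limma 3.58.1 in R 4.3.3 fitted the 4 groups (2 residual degrees of freedom, 1 with the slide), with two-sided p-values adjusted by Benjamini-Hochberg and a threshold of 0.05 over all 26394 features. A further fit took genotype with line and slide over all 6 arrays. The CreER pair alone allows no test, so a 2-fold difference was counted. The line of each sample was read from the style of its title together with the series text. Figures were drawn with matplotlib 3.10.9.

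The members, the 15 other gene lists and the tests were chosen with earlier results of these data known. The lists hold 205 genes, and cover the roles and cell types named in the text. All members, Sall1, Six2, Wnt11 and Robo2 were named, and from each list of pathway genes up to 4 with the largest Six2Cre difference without overlap, and the 3 genes of highest Pearson r with Gdnf and with Ret, apart from what is not reported here. The fit was tested on simulated data. Alternatives were the slide as a block, trend and robust options, normexp background, quantile normalization, other filters, all probes of a gene, the deposited table, and each Six2Cre array left out. The probe-by-probe fit, and sums or counts without Elavl4 or Ret, were added after seeing the data.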

Additional observations from a re-analysis of the deposited data

Results flagged for a closer look

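Spry4 was higher in the CreER knockout than in its control, by 0.27, while both Six2Cre pairs were lower in the knockout, by 0.74 on slide 1 and 0.43 on slide 2. It stands here because the lines differed in direction in every pair of arrays. The difference between the lines, CreER minus Six2Cre, was 0.85 (SE 1.55, limma adjusted p = 1), or an unadjusted p of 0.0688 and an adjusted p of 0.999 with the slide as a block, so the change of direction did not pass the test. The 2 CreER arrays gave the sign of the CreER difference without a replicate.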

How the results depend on the processing

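No feature passed in the Six2Cre comparison under the other settings run, except with the slide as a block, trend and robust options, where 663 passed (328 higher and 335 lower). Under that setting 8 features passed for the difference between lines, none of them a member. For genotype over all 6 arrays, 12 passed with trend and robust options and 36 with normexp background. The features at least 2-fold apart in the CreER pair numbered 1060, and 158 with normexp, 5041 with no filter on dim probes and 338 when well above background on all 6 arrays. Among the members, 8 to 10 had a negative Six2Cre difference under every setting run. The sign of a value near 0 turned for Gdnf with normexp (0.0039) and for Spry2 with quantile normalization (0.0037). In the CreER pair it turned for Etv5 with quantile normalization (0.0094) and with all probes of a gene (0.021). For Dusp6 it turned in that pair with normexp (0.047). Ret turned over 6 arrays with the deposited series table (0.043), and its difference between lines turned with that table (0.80) and with normexp (0.25). Its CreER difference moved to 0.58 and 0.16 under the same settings, and that of Sall1 to -2.21 with normexp. With each Six2Cre array left out in turn, the Six2Cre differences ran from -0.47 to 0.39 for Gdnf, -0.38 to 0.37 for Spry2, -1.59 to 0.43 for Spry4, -1.81 to -0.58 for Etv4 and -1.02 to -0.14 for Spry1, and of the members Gdnf, Spry2 and Spry4 alone turned sign there. The difference between lines ran from -0.16 to 1.86 for Spry4, -0.31 to 0.0091 for Ret, -0.06 to 0.18 for Gfra1, 0.54 to 1.77 for Etv4 and -0.042 to 0.70 for Spry2. The cause of these changes was not tested, beyond the unequal slides that leaving out an array makes. The Six2Cre groups share no replicate number, so pairs were taken by slide, as the slide block. Signal over background limits Ret, the dimmer Spry4 probe and Grem1.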
